A study of Mus musculus with 8 samples.

Results

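Of the 6 hepatocellular carcinomas (HCC) of this series, 3 had at least 1 autosome whose mean log2 ratio lay at or beyond 0.1 in either direction and are called aneuploid here, and 3 had none and are called quiet. Each array was centred on the median of its autosomal probes, and the mean log2 ratio of every autosome was taken. The aneuploid tumours were 1, 4 and 5, and the quiet tumours were 2, 3 and 6. These autosome means chose the classes, so they are given as a description with no test. The largest absolute autosome mean was 0.31, 0.20 and 0.32 in aneuploid tumours 1, 4 and 5, against 0.08, 0.05 and 0.03 in quiet tumours 2, 3 and 6. Tumour 4, at 0.20 on chromosome 16, lay nearest to the threshold from above, and tumour 2, at 0.08 on chromosome 10, lay nearest to it from below.

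All 8 livers of the series came from male mice of the C57BL/6 strain. The aneuploid tumours came from FEAT transgenic mice of 16, 18.5 and 22 months (tumours 1, 4 and 5), and the quiet tumours from FEAT transgenic mice of 21, 20 and 12 months (tumours 2, 3 and 6). The remaining 2 arrays held the non-tumour liver of a FEAT transgenic mouse of 13 months (FEAT normal liver) and that of a wild-type mouse of 6 months. FEAT is another name of Mettl13, a methyltransferase gene, and the sources used here do not give the promoter of the transgene. By their labels, tumours 1, 4 and 5 were noted as present in the right and left lobes, as multiple with lung metastasis, and as localised. For tumours 2, 3 and 6 the notes were tumour in the liver only, multiple in the liver, and localised. Every sample was hybridised against DNA of a normal liver of a wild-type male C57BL/6 mouse of 6 months, on arrays of oligonucleotide probes of which 220065 lay on autosomes, 11955 on X and 606 on Y. Positive values mean more sample DNA than reference DNA. The labels do not say how the mice relate to each other, so p-values measure the spread between these arrays only. The first number in the tumours' titles is 1 for tumour 1, 16 for tumours 2 and 3, and 18 for tumours 4, 5 and 6, and the labels do not say what it stands for. The DNA came from minced bulk tissue, in which fewer altered cells and a smaller alteration per cell cannot be told apart.

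Aneuploidy is a number of chromosomes that departs from the balanced set. It arises when chromosomes are shared out unevenly at cell division, and it is common in liver cancer, where hepatocytes can also carry more than the diploid set without imbalance between chromosomes. Array comparative genomic hybridisation measures imbalance relative to the average of the genome, so a balanced doubling of all chromosomes leaves it unchanged. Loss of the Y chromosome is a frequent somatic change in male cells and tumours.

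The aneuploid tumours differed in how many autosomes moved and in which direction. In tumour 1, 4 autosomes lay past 0.1, with chromosome 15 higher and chromosomes 4, 12 and 14 lower. In tumour 4, 4 autosomes lay past it and all were higher, namely chromosomes 1, 16, 17 and 18. In tumour 5, 12 lay past it, with 5 higher and 7 lower. The chromosomes concerned held 19.7%, 18.9% and 60.1% of autosomal probes in tumours 1, 4 and 5. The SD of the 19 autosome means was 0.12, 0.08 and 0.17 in aneuploid tumours 1, 4 and 5, against 0.032, 0.0059 and 0.015 in quiet tumours 2, 3 and 6, and 0.0076 and 0.0065 in the non-tumour FEAT and wild-type livers. Tumour 3 lay below both non-tumour livers in this measure, and tumours 6 and 2 lay between the non-tumour livers and the aneuploid tumours.

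**Figure D1:**
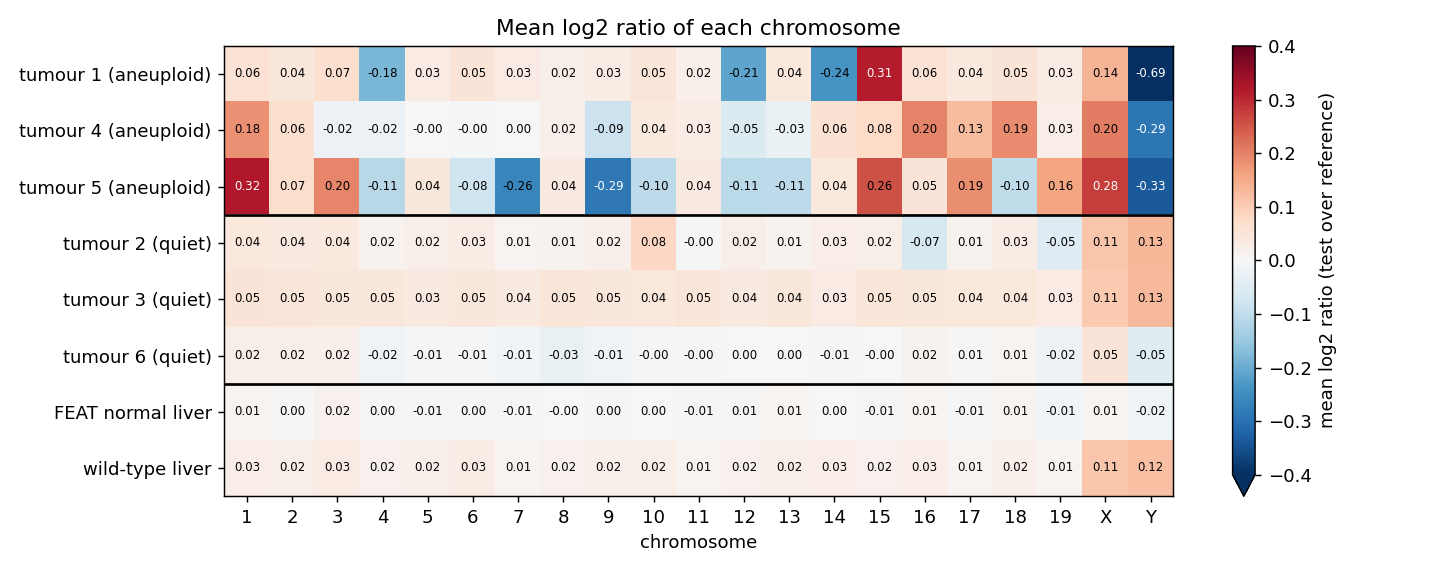
Mean log2 ratio (test over reference) of the 19 autosomes and of X and Y on each of the 8 arrays, with aneuploid tumours above quiet tumours and non-tumour livers, and the colour scale ending at 0.4 in either direction. Autosomes past 0.1 are seen in tumours 1, 4 and 5 and in no other row, and Y is lowest in the same 3 rows.

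The levels within tumour 5 fell into a few steps. Chromosome 1 stood at 0.32 and chromosome 15 at 0.26, while chromosomes 3, 17 and 19 stood at 0.20, 0.19 and 0.16. On the lower side, chromosomes 9 and 7 stood at -0.29 and -0.26, and chromosomes 4, 12, 13, 10 and 18 lay together between -0.11 and -0.10. Chromosome 6 stood at -0.08, just short of the threshold. In tumour 1 the gain of chromosome 15, at 0.31, was larger than any of its 3 losses, at -0.24 (chromosome 14), -0.21 (chromosome 12) and -0.18 (chromosome 4). In tumour 4 the 4 gains lay between 0.13 (chromosome 17) and 0.20 (chromosome 16), and its lowest autosome was chromosome 9 at -0.09.

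For scale, a gain or loss of 1 copy in every cell of a diploid tissue would give a log2 ratio of 0.58 or -1. If each shift were a change of 1 copy in part of the cells, with 2 copies in the others and no compression of the ratios, the share of cells would be 48.5% for chromosome 15 and 23.9% to 30.1% for the losses in tumour 1. By the same arithmetic it would be 18.1% to 29.6% for the gains of tumour 4. In tumour 5 it would be 49.9% for chromosome 1, 36.0% for chromosome 9, 33.0% for chromosome 7 and 13.7% to 14.8% for the 5 weaker losses. Under these assumptions the shares within a tumour would differ by chromosome.

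The shifted autosomes were shifted over most of their length. Each was divided into 3 parts with equal numbers of 1 Mb bins, and in all 20 combinations of tumour and shifted autosome the 3 parts had the sign of the whole. The parts of chromosome 1 in tumour 5 stood at 0.33, 0.33 and 0.32, and those of chromosome 9 at -0.28, -0.29 and -0.29. Across the 20 combinations, between 96.7% and 100% of bins had the sign of their chromosome. Chromosome 17 of tumour 4 had the lowest such share, with parts at 0.12, 0.15 and 0.17. Within it, a segment of 4.16 Mb stood at 0.03 and a segment of 1.44 Mb at -0.07, which the parts do not show. The widest range between parts was 0.09, on chromosome 15 of tumour 1, whose middle part stood at 0.37 and whose outer parts stood at 0.31 and 0.29.

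**Figure D2:**
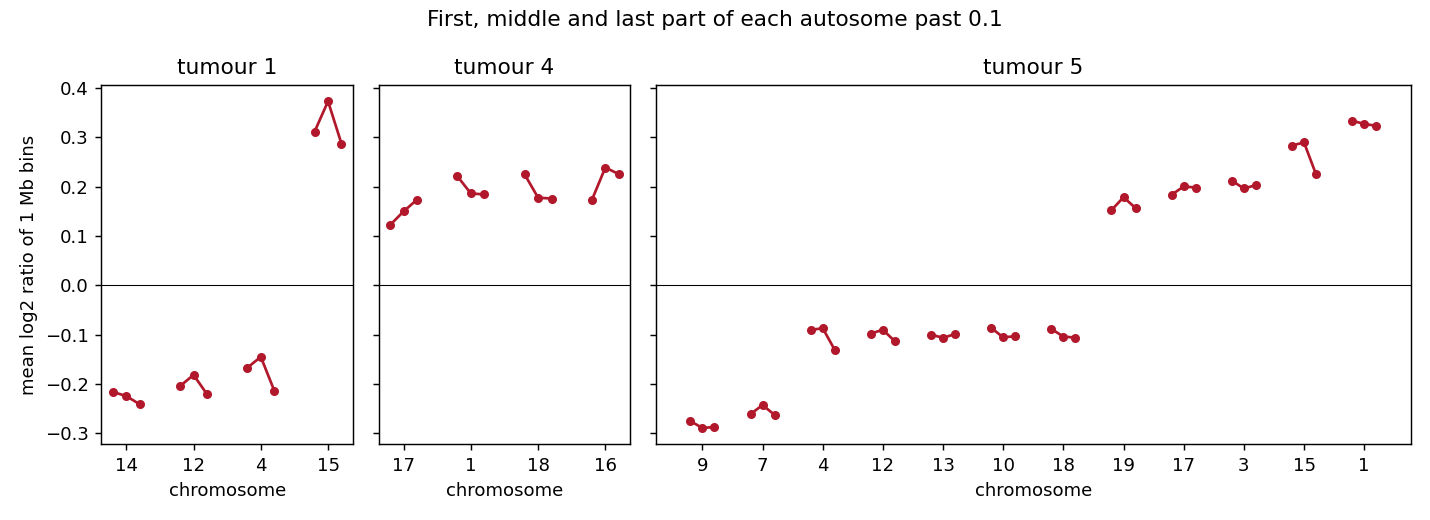
Mean log2 ratio of the first, middle and last part (3 joined points, left to right) of each autosome past 0.1 in the aneuploid tumours 1, 4 and 5. No part lies on the other side of 0 from its chromosome, and the points of tumour 5 are nearly level apart from the last part of chromosomes 4 and 15.

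A smaller step within chromosome 1 was shared with arrays that had no shift there. The segment of tumour 5 with the highest mean (of those with 100 probes or more) ran over 11.4 Mb from 138906058 to 150308722 in the array's own coordinates (the genome build is not named in the sources used here). It stood above the rest of chromosome 1 by 0.06, 0.15 and 0.06 in aneuploid tumours 1, 4 and 5, against 0.07, 0.04 and 0.09 in quiet tumours 2, 3 and 6. The same difference was 0.06 and 0.03 in the non-tumour FEAT and wild-type livers. Its probes had a GC content of 35.8% on average, against 36.5% on the rest of the chromosome. The step was positive on all 8 arrays and largest in tumour 4, the array with the highest probe noise. Its part in the segment calls was not tested.

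**Figure D3:**
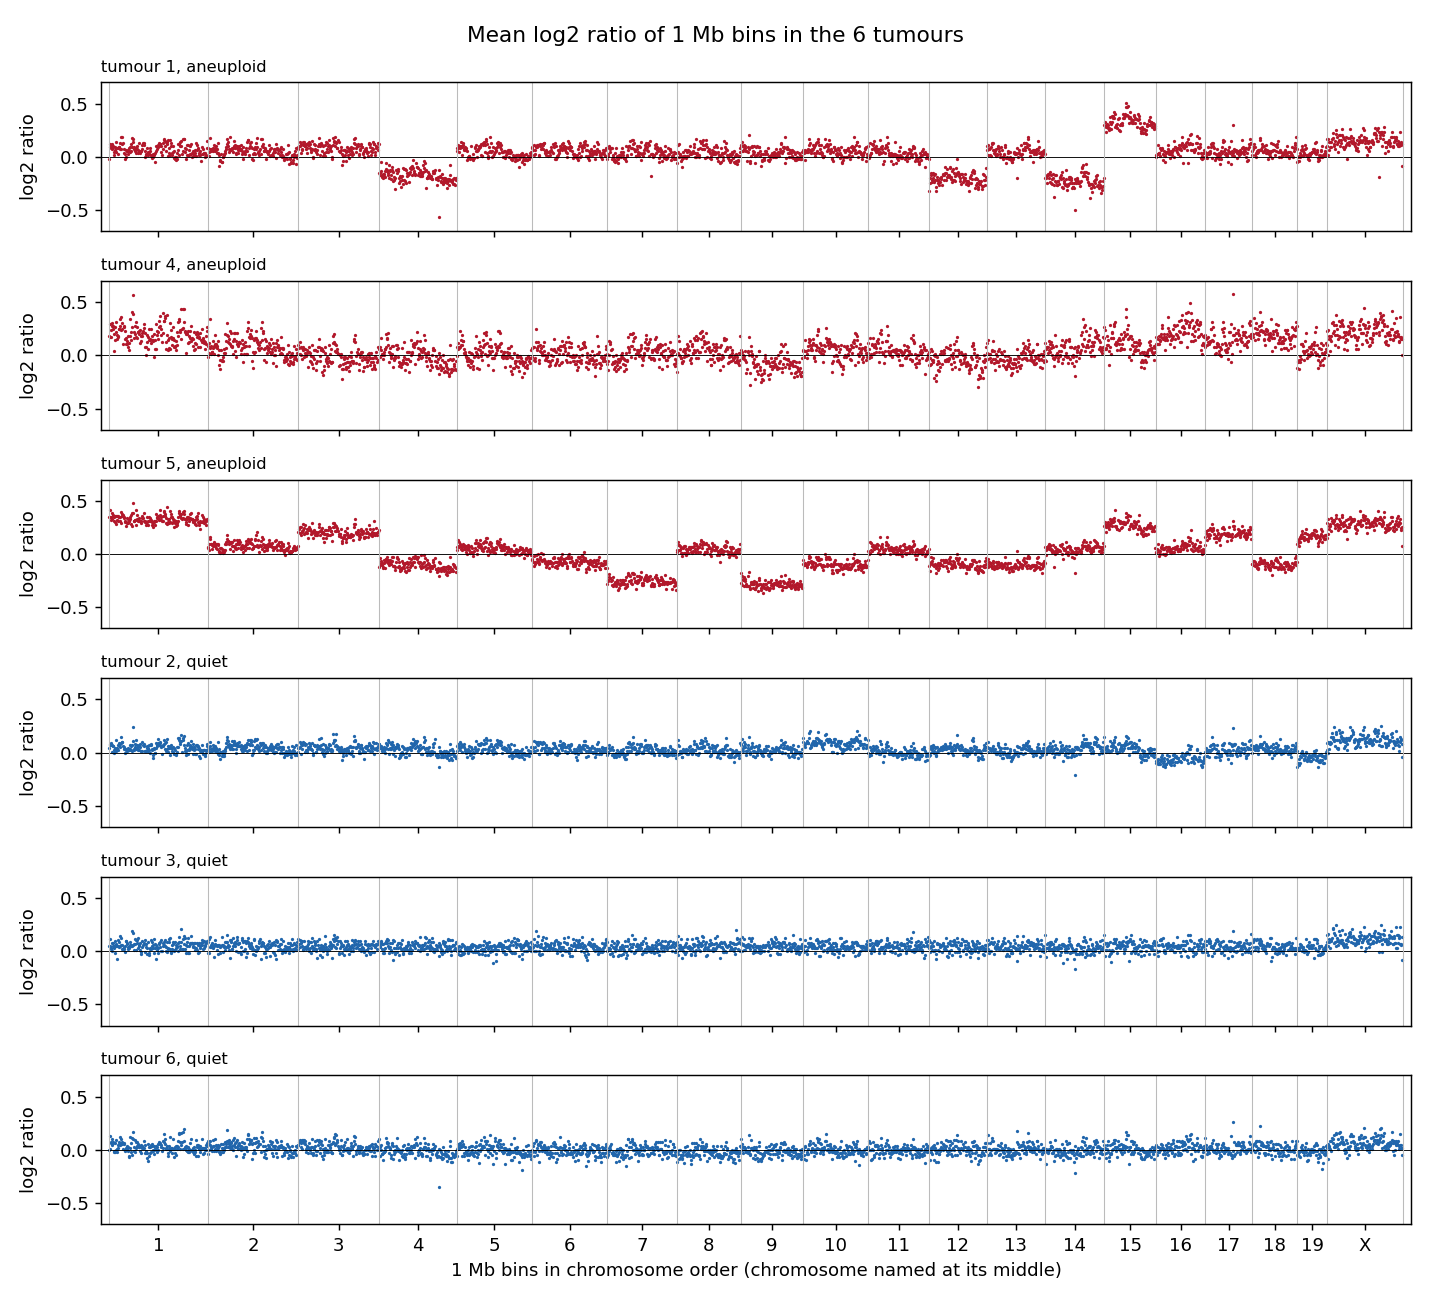
Mean log2 ratio of 1 Mb bins in chromosome order, 1 panel per tumour, with the aneuploid tumours 1, 4 and 5 above the quiet tumours 2, 3 and 6. Points of shifted chromosomes in tumours 1 and 5 move as whole blocks that end at chromosome borders, those of tumour 4 scatter more widely, and tumour 2 shows small blocks at chromosomes 10, 16 and 19.

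No autosome was shifted in all 3 aneuploid tumours. Of the 19 autosomes, 5 (chromosomes 2, 5, 6, 8 and 11) were past 0.1 in none of the tumours, 8 in 1 tumour and 6 in 2. Chromosomes 1, 15 and 17 were higher in 2 tumours each, chromosomes 4 and 12 were lower in 2 tumours each, and chromosome 18 was higher in tumour 4 (0.19) and lower in tumour 5 (-0.10). Tumours 1 and 5 shared the gain of chromosome 15 and the losses of chromosomes 4 and 12, and tumours 4 and 5 shared the gains of chromosomes 1 and 17. Tumours 1 and 4 shared none of their 4 shifted autosomes each. Every shared shift thus included tumour 5, which had the most shifted autosomes. The sharing depended on the centring. With each array centred on its mode, chromosomes 4 and 12 lay past 0.1 on the lower side in tumour 1 alone. Chromosome 15 then lay past it on the higher side in tumours 1, 4 and 5, and also in tumour 3.

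Set against the quiet tumours, the aneuploid tumours lay apart on 5 autosomes with centring on the autosomal median. Chromosome 15 stood at 0.31, 0.08 and 0.26 in aneuploid tumours 1, 4 and 5, against 0.02, 0.05 and 0.00 in quiet tumours 2, 3 and 6. Chromosome 1 stood at 0.06, 0.18 and 0.32 in aneuploid tumours 1, 4 and 5, against 0.04, 0.05 and 0.02 in quiet tumours 2, 3 and 6. Chromosome 16 also lay higher without overlap, and on chromosomes 1, 15 and 16 the lowest aneuploid tumour stood under the threshold. Chromosome 12 stood at -0.21, -0.05 and -0.11 in aneuploid tumours 1, 4 and 5, against 0.02, 0.04 and 0.00 in quiet tumours 2, 3 and 6. Chromosome 4 stood at -0.18, -0.024 and -0.11 in aneuploid tumours 1, 4 and 5, against 0.02, 0.05 and -0.018 in quiet tumours 2, 3 and 6. The separation depended on the centring. With centring on chromosomes 2, 5, 6, 8 and 11, the classes stayed apart on chromosomes 12 and 15 and overlapped on chromosomes 1, 4 and 16. With centring on the mode, chromosome 15 alone of the 5 stayed apart. The range over the 3 tumours was wider in the aneuploid class on 17 of 19 autosomes. The exceptions were chromosomes 8 and 11, where the aneuploid tumours spanned 0.016 each and the quiet tumours 0.078 and 0.054.

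At a resolution of 1 Mb, the aneuploid tumours all lay above the quiet tumours in 381 of 2374 autosomal bins (16.0%) and all below them in 176 (7.41%), so that 557 bins (23.5%) did not overlap. The classes were chosen on the same values, and nothing is read from these shares. The bins without overlap were 73.3% of chromosome 15 and 51.0% of chromosome 16 on the higher side, and 73.2% of chromosome 12 and 43.0% of chromosome 4 on the lower side. On chromosome 18, where tumours 4 and 5 moved in opposite directions, 0 of 88 bins were without overlap. After division into segments, with calls at or beyond 0.2, called segments held 14.3%, 5.58% and 25.1% of autosomal probes in aneuploid tumours 1, 4 and 5, against 0.0331%, 0.0233% and 0.0298% in quiet tumours 2, 3 and 6. The non-tumour FEAT and wild-type livers had 0.0324% and 0.0179%. For tumour 4 this share depends on the settings, with 0.0334% at a calling threshold of 0.3, 0.0142% with 2 times the penalty and 22.5% with centring on the mode.

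The quiet tumours were not equally quiet. In tumour 2, chromosome 10 stood at 0.08 with parts at 0.10, 0.08 and 0.09, and 98.4% of its bins were above 0. Chromosome 16 of the same tumour stood at -0.07 with parts at -0.08, -0.05 and -0.05, and chromosome 19 at -0.05 with parts at -0.05, -0.04 and -0.05. These shifts lay under the threshold and were whole-chromosome in shape. The autosomes of tumour 3 lay between 0.03 and 0.05 and those of tumour 6 between -0.03 and 0.02. Called segments of 3 Mb or more numbered 14, 5 and 12 in aneuploid tumours 1, 4 and 5, against 0 in each of the quiet tumours.

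The sex chromosomes were not used to form the classes, and the Y chromosome lay lower in every aneuploid tumour. The mean over Y probes was -0.69, -0.29 and -0.33 in aneuploid tumours 1, 4 and 5, against 0.13, 0.13 and -0.05 in quiet tumours 2, 3 and 6. The non-tumour FEAT and wild-type livers stood at -0.02 and 0.12. The classes did not overlap, with a difference of -0.51 between means of -0.44 ± 0.22 and 0.07 ± 0.10 (SD, n = 3 each). An exact two-sided permutation test over the 20 splits gave p = 0.1, the smallest this design allows (adjusted p = 0.429 over the 15 measures tested), so that 0.05 could not be reached. Leaving out each tumour in turn gave differences from -0.58 to -0.38. The 2 non-tumour livers differed from each other by less than the classes did. Among the 3 tumours with 18 in their titles, Y stood at -0.29 and -0.33 in aneuploid tumours 4 and 5, against -0.05 in quiet tumour 6. The other numbers were held by 1 class each.

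The lower level ran over the measured Y chromosome. Of the Y probes, 92.4%, 74.2% and 82.7% lay below 0 in aneuploid tumours 1, 4 and 5, against 36.2%, 42.2% and 56.0% in quiet tumours 2, 3 and 6. The share was 58.9% and 38.5% in the non-tumour FEAT and wild-type livers. In tumours 1 and 4 the whole measured stretch of 2.18 Mb was a single called segment. Usp9y, which encodes a deubiquitinase and has 273 probes, stood at -0.63, -0.17 and -0.29 in aneuploid tumours 1, 4 and 5, against 0.20, 0.18 and 0.02 in quiet tumours 2, 3 and 6. Uty, which encodes a relative of histone demethylases and has 25 probes, stood at -1.03, -0.49 and -0.45 in aneuploid tumours 1, 4 and 5, against 0.19, 0.05 and -0.08 in quiet tumours 2, 3 and 6. Zfy1, a zinc finger gene with 12 probes, stood at -0.53, -0.02 and -0.15 in aneuploid tumours 1, 4 and 5, against 0.18, 0.18 and 0.06 in quiet tumours 2, 3 and 6. Sry, the testis-determining gene, has 1 probe, at -0.86, -0.08 and -0.76 in aneuploid tumours 1, 4 and 5, against 0.10, 0.28 and 0.13 in quiet tumours 2, 3 and 6. The non-tumour FEAT and wild-type livers stood at 0.01 and 0.19 for Usp9y and at -0.02 and 0.02 for Uty. They stood at 0.13 and -0.07 for Zfy1 and at -0.22 and 0.19 for Sry. Tumour 4 thus lay above the wild-type liver at Zfy1 and above the non-tumour FEAT liver at Sry. All 4 genes were lowest in tumour 1. If the single Y were lost from part of the cells, with no compression of the ratios, the levels would correspond to 38.1%, 18.2% and 20.7% of cells in tumours 1, 4 and 5. The same arithmetic gave 3.4% in tumour 6 and 1.1% in the non-tumour FEAT liver. It gave -9.7%, -9.4% and -8.6% in tumours 2 and 3 and the wild-type liver. No share of cells can be negative, so these percentages are rough.

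The X chromosome lay higher in the aneuploid tumours, by less. It stood at 0.14, 0.20 and 0.28 in aneuploid tumours 1, 4 and 5, against 0.11, 0.11 and 0.05 in quiet tumours 2, 3 and 6. The difference was 0.12 between means of 0.21 ± 0.07 and 0.09 ± 0.03 (SD, n = 3 each), with an exact two-sided permutation p of 0.1 (adjusted p = 0.429). The non-tumour FEAT and wild-type livers stood at 0.01 and 0.11, so that 2 livers without tumour were about as far apart as the class means. With each array centred on its mode, X stood at 0.16, 0.29 and 0.30 in aneuploid tumours 1, 4 and 5, against 0.14, 0.18 and 0.04 in quiet tumours 2, 3 and 6, and the classes overlapped. Of 147 X bins, 82 (55.8%) lay higher in all aneuploid tumours, against 16.0% of autosomal bins. Bins of 1 chromosome share its level, and this share was 73.3% on chromosome 15, 51.0% on chromosome 16 and 46.4% on chromosome 1. In tumour 5 the 3 parts of X stood at 0.28, 0.29 and 0.28, a range of 0.01.

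**Figure D4:**
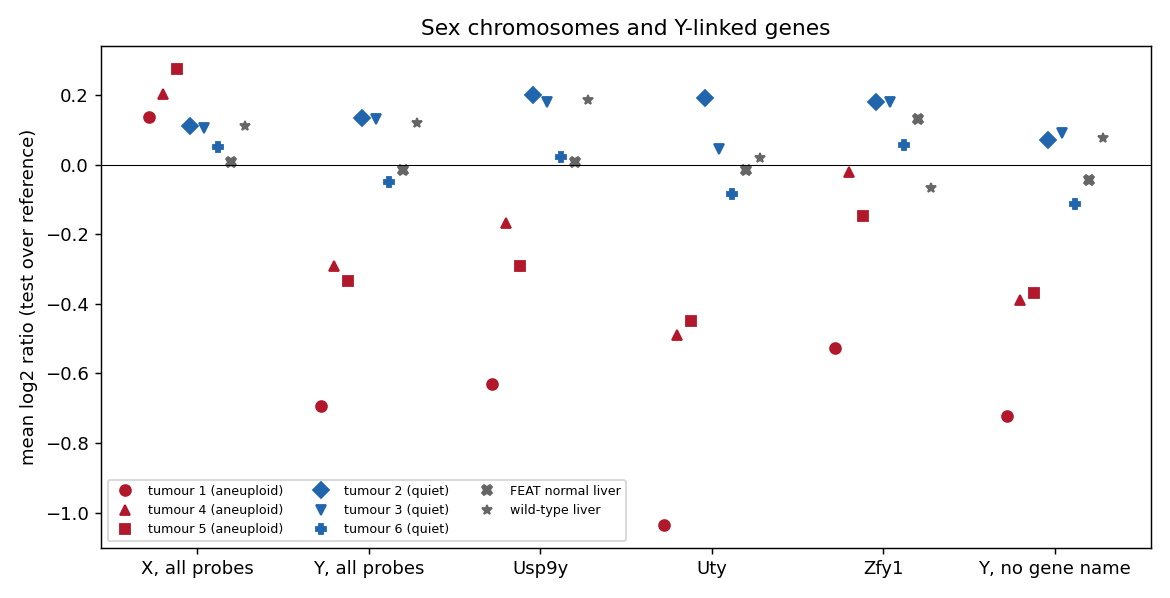
Mean log2 ratio (test over reference) of X, of Y, of 3 Y-linked genes and of Y probes without a gene name, with 1 symbol per array and the aneuploid tumours left of the quiet tumours and the non-tumour livers. The aneuploid tumours lie lowest on Y and on its genes except for tumour 4 at Zfy1, which is above the wild-type liver, and highest on X.

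Genes followed the chromosomes that carry them. The level of a gene was the mean of the probes within 0.5 Mb, and a gene was counted as gained or lost at or beyond 0.2. Of 125 measured autosomal genes of 8 lists, 45 (36.0%) were gained or lost in at least 1 aneuploid tumour, 18 of them gained and 27 lost, and 0 were in a quiet tumour. Over all 24692 named autosomal genes, 39.7% were gained or lost in at least 1 aneuploid tumour, 16.3% gained and 23.4% lost, and 0.121% in a quiet tumour. By tumour, 6, 5 and 17 list genes were gained and 4, 3 and 23 lost in tumours 1, 4 and 5. Of all named genes, 1017, 1308 and 3071 were gained and 2368, 303 and 3384 lost in tumours 1, 4 and 5. Tumour 5 alone thus held most of the list genes counted. The lists thus lay near the share of all genes. In at least 2 aneuploid tumours, 10 of the 125 list genes were gained and 3 lost, beside 1328 (5.38%) and 254 (1.03%) of all 24692 named genes. The median difference between the classes was -0.0047 over the list genes and -0.014 over all named genes. Genes of 1 chromosome share its level, and near neighbours share probes, so the genes are no separate observations.

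Among 23 measured genes of chromosome segregation, 4 (17.4%) were gained and 6 (26.1%) lost in at least 1 aneuploid tumour. Over all named genes these shares were 16.3% and 23.4%. Rad21, a cohesin subunit gene on chromosome 15, stood at 0.36, 0.11 and 0.25 in aneuploid tumours 1, 4 and 5, against 0.04, 0.02 and -0.05 in quiet tumours 2, 3 and 6. Ttk, a spindle checkpoint kinase gene on chromosome 9, stood at 0.04, -0.14 and -0.34 in aneuploid tumours 1, 4 and 5, against -0.02, 0.00 and -0.08 in quiet tumours 2, 3 and 6. Zw10, which acts at the kinetochore, is also on chromosome 9 and stood at -0.33 in tumour 5. Only Rad21 of these 3 had every aneuploid tumour on the same side of all quiet tumours. At Ttk, tumour 1 lay above all quiet tumours, and tumours 4 and 5 lay below them.

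Of 18 genes of the DNA damage response, 4 (22.2%) were gained and 3 (16.7%) lost, beside 16.3% and 23.4% of all named genes. Chek1 and Atm, kinase genes of the damage checkpoints on chromosome 9, stood at -0.35 and -0.33 in tumour 5. Chek1 stood at -0.18 in tumour 4, where Atm stood at -0.08. Mdm4, an inhibitor of p53 on chromosome 1, stood at 0.02, 0.09 and 0.33 in aneuploid tumours 1, 4 and 5, against 0.03, 0.07 and 0.04 in quiet tumours 2, 3 and 6. In 5 telomere genes, 1 was gained and 0 lost. Terf1, a telomere-binding protein gene on chromosome 1, stood at 0.07, 0.22 and 0.27 in aneuploid tumours 1, 4 and 5, against 0.00, 0.11 and 0.00 in quiet tumours 2, 3 and 6. Tert, the telomerase catalytic subunit gene on chromosome 13, reached -0.10 at most. Dkc1, a telomerase component gene on X and outside the autosomal count, stood at 0.23 in tumour 5.

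The growth-related lists moved in both directions. Of 21 HCC oncogenes, 3 were gained and 7 lost, and of 19 HCC tumour suppressors 1 was gained and 4 lost, beside 16.3% gained and 23.4% lost over all named genes. Myc, the gene of a transcription factor that promotes growth, lies on chromosome 15 and stood at 0.35, 0.06 and 0.29 in aneuploid tumours 1, 4 and 5, against 0.06, 0.05 and 0.03 in quiet tumours 2, 3 and 6. Fgf15, a growth factor gene, and Ccnd1, the cyclin D1 gene, lie close together on chromosome 7 and stood at -0.32 each in tumour 5. Arid2, a chromatin remodelling gene listed as a suppressor, stood at 0.32 and 0.26 in tumours 1 and 5. Keap1, a regulator of the oxidative stress response on chromosome 9, stood at -0.05, -0.28 and -0.34 in aneuploid tumours 1, 4 and 5, against -0.03, 0.02 and -0.07 in quiet tumours 2, 3 and 6. Rassf1, also on chromosome 9, stood at -0.30 in tumour 5. Of 15 genes of the G1 cell cycle, 0 were gained and 3 lost, namely Ccnd1 and Ccne1 (-0.27), cyclin genes on chromosome 7, in tumour 5, and Rb1, the retinoblastoma gene on chromosome 14, in tumour 1 (-0.22).

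Of 17 apoptosis genes, 4 (23.5%) were gained and 3 (17.6%) lost, beside 16.3% and 23.4% of all named genes. Cflar, an inhibitor of death receptor signalling, and Casp8, the caspase it inhibits, are neighbours on chromosome 1. Cflar stood at 0.08, 0.22 and 0.33 in aneuploid tumours 1, 4 and 5, against 0.07, 0.14 and 0.07 in quiet tumours 2, 3 and 6. Casp8, whose window overlaps that of Cflar, stood at 0.24 in tumour 4 and 0.32 in tumour 5. Bcl2, an apoptosis inhibitor gene on the same chromosome, stood at 0.32 in tumour 5 and 0.15 in tumour 4. Of 14 hepatocyte genes, 2 (14.3%) were gained and 3 (21.4%) lost. Apoa1, an apolipoprotein gene on chromosome 9, stood at -0.34 and Cebpa, a hepatocyte transcription factor gene on chromosome 7, at -0.30 in tumour 5. Glul, the glutamine synthetase gene on chromosome 1, stood at 0.31 there.

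**Figure D5:**
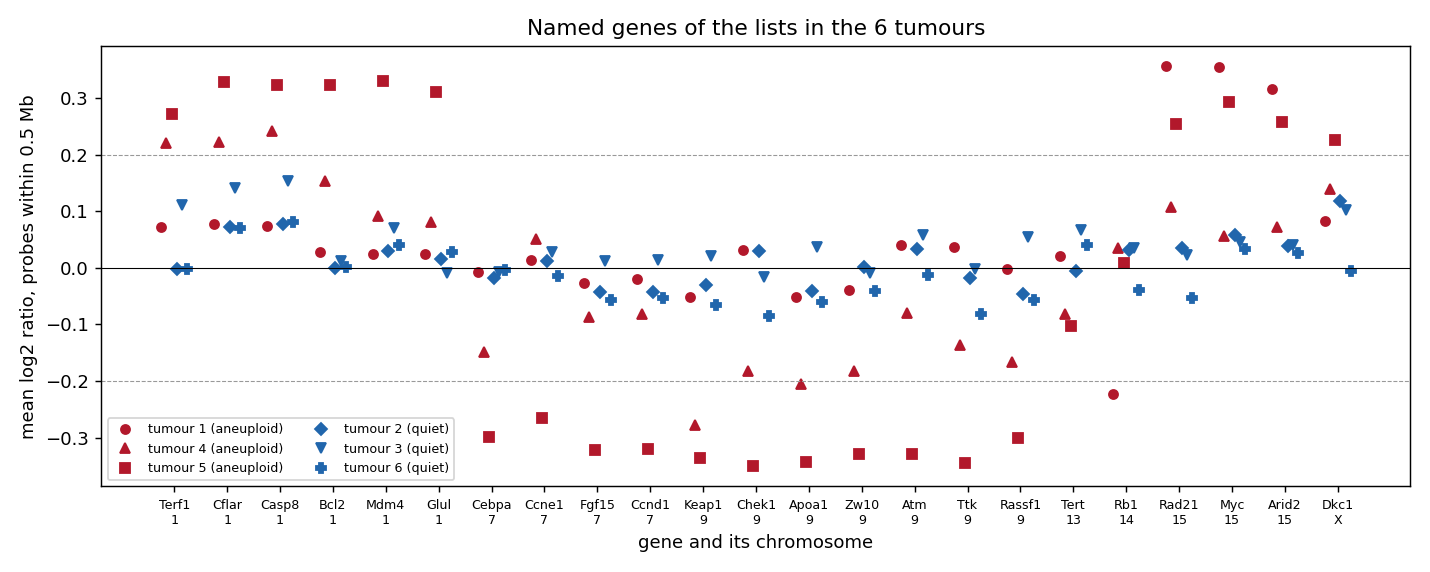
Mean log2 ratio of the probes within 0.5 Mb of the genes named from the 8 lists, in chromosome order, with the aneuploid tumours 1, 4 and 5 left of the quiet tumours 2, 3 and 6 at each gene and dashed lines at 0.2 in either direction. The quiet tumours stay within the dashed lines at all these genes, and tumour 5 lies outside them at every gene shown of chromosomes 1, 7 and 9.

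Changes below the scale of chromosomes were then compared. For each of 13497 genes with at least 3 probes, the mean of its probes was set against the median of 20 probes on each side, which removes the level of the chromosome. Between the classes, limma called 0 genes (0.0%) at an adjusted p under 0.05, and 296 had an unadjusted p under 0.05 (2.19%). The smallest adjusted p was 1.00. On simulated arrays with 13497 genes, limma recovered 96.7% of genes shifted by 1.0, 42.9% of those shifted by 0.6 and 0% of those shifted by 0.3. The gene with the smallest p was Atp6v1b1, a proton pump subunit gene, at -0.08, -0.20 and -0.07 in aneuploid tumours 1, 4 and 5, against 0.34, 0.28 and 0.17 in quiet tumours 2, 3 and 6. It was followed by AK041445 (difference 0.39), Birc4 (-0.33), an apoptosis inhibitor gene on X, Hdac7a (-0.41), a histone deacetylase gene, and Slc5a10 (-0.26), a sugar transporter gene. None of these 5 passed the adjustment.

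Segments called on autosomes and shorter than 3 Mb numbered 8, 5 and 7 in aneuploid tumours 1, 4 and 5, against 5, 3 and 3 in quiet tumours 2, 3 and 6, a difference of 3 segments (exact two-sided permutation p = 0.2, adjusted p = 0.429). Of these, 3, 1 and 5 in tumours 1, 4 and 5 lay on the shifted autosomes of the same tumour, which held 19.7%, 18.9% and 60.1% of autosomal probes. Calls use the absolute level, to which the shift of a chromosome adds. The count is therefore not separate from the values that formed the classes. The non-tumour FEAT and wild-type livers had 7 and 6 autosomal segments under 3 Mb, within the range of the aneuploid tumours and above every quiet tumour. Off the shifted autosomes, the segments numbered 5, 4 and 2 in aneuploid tumours 1, 4 and 5, against 5, 3 and 3 in quiet tumours 2, 3 and 6. A loss at A630047E20Rik on chromosome 3 (from 132488217 to 132529248) was called in 2 aneuploid tumours and no quiet tumour. Its probes stood at -0.63, -0.60 and -0.48 in aneuploid tumours 1, 4 and 5, against 0.29, 0.32 and -0.62 in quiet tumours 2, 3 and 6, so that tumour 6 was as low without a call. Apart from Y, no other such segment met that rule, and none was called in 2 quiet tumours and no aneuploid tumour.

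A loss at Loxl2, a lysyl oxidase gene on chromosome 14, was called in all 6 tumours and in the FEAT normal liver. Relative to 40 flanking probes it stood at -0.95, -0.97 and -0.89 in aneuploid tumours 1, 4 and 5, against -0.93, -0.92 and -0.94 in quiet tumours 2, 3 and 6, and at -0.87 and 0.00 in the non-tumour FEAT and wild-type livers. The classes differed by -0.01 (exact two-sided permutation p = 0.7, adjusted p = 0.875). Tumour 1, with chromosome 14 lower as a whole, lay within the range of the other tumours relative to its surroundings, and its uncorrected segment mean was -1.32, against -0.99 in tumour 2.

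Mettl13, the transgenic gene, has 2 probes on chromosome 1, under the name 5630401D24Rik. Their sequences are shown because each class comparison at this gene rests on a single oligonucleotide. They are written as the deposited scanner file gives them, with that file's coordinates.
Mettl13 probe 1, chr1:162500192-162500247: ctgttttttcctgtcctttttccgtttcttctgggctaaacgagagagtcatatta
Mettl13 probe 2, chr1:162506803-162506861: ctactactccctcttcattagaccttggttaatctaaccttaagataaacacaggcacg
Above the median of its flanking probes, probe 1 stood at 1.23, -0.17 and 0.18 in aneuploid tumours 1, 4 and 5, against 1.52, 3.51 and 0.41 in quiet tumours 2, 3 and 6. The non-tumour FEAT and wild-type livers stood at 2.00 and -0.26. The difference of -1.40 had an exact two-sided permutation p of 0.2 (adjusted p = 0.429), and the ranges overlapped through tumour 1. It was -0.55 without tumour 3 and -2.10 without tumour 6. Probe 2 stood at 0.24, 0.77 and 0.62 in aneuploid tumours 1, 4 and 5, against 0.39, 0.35 and 0.68 in quiet tumours 2, 3 and 6, with a difference of 0.07 (exact two-sided permutation p = 0.9, adjusted p = 0.900). The 2 probes of the gene ranked the tumours differently.

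The classes overlapped in age and in the quality of the arrays. Mice with aneuploid tumours were 18.8 ± 3.0 months old and those with quiet tumours 17.7 ± 4.9 months (SD, n = 3 each, exact two-sided permutation p = 0.8, adjusted p = 0.900). The youngest mouse, of 12 months, had a quiet tumour, and the oldest, of 22 months, an aneuploid tumour. Probe noise, the SD between neighbouring probes, was 0.31, 0.49 and 0.24 in aneuploid tumours 1, 4 and 5, against 0.25, 0.35 and 0.37 in quiet tumours 2, 3 and 6 (exact two-sided permutation p = 0.9, adjusted p = 0.900). Both the lowest and the highest noise were thus in aneuploid tumours. Probes without a value numbered 3401, 2369 and 3112 in aneuploid tumours 1, 4 and 5, against 3111, 1350 and 2171 in quiet tumours 2, 3 and 6 (exact two-sided permutation p = 0.2, adjusted p = 0.429).

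Antigen receptor loci, whose rearrangement in lymphocytes removes DNA, were set against flanking probes, and the lowest class mean among 6 loci was -0.014, for immunoglobulin lambda in the quiet tumours. The T cell receptor alpha and delta locus stood at 0.02, 0.05 and 0.08 in aneuploid tumours 1, 4 and 5, against 0.06, -0.02 and 0.07 in quiet tumours 2, 3 and 6. The immunoglobulin kappa locus stood at 0.07, 0.14 and 0.07 in aneuploid tumours 1, 4 and 5, against 0.05, 0.02 and 0.04 in quiet tumours 2, 3 and 6. With Y and X it made up the 3 of 15 measures without overlap, with a difference of 0.06 (exact two-sided permutation p = 0.1, adjusted p = 0.429) that was 0.036 without tumour 4. The non-tumour FEAT and wild-type livers stood at 0.05 each there. The other 5 loci overlapped between the classes, with differences from 0.01 to 0.08 and adjusted p from 0.429 to 0.875 by exact permutation.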

How the data were processed

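The deposited values are log2 ratios of test (Cy3) over reference (Cy5) DNA, per the labels. On the wild-type array they equal the negative of the deposited log10 ratio, changed to base 2, plus 0.0014 (r = -1.00), and elsewhere the direction follows from the labelled dyes. The intensity and flag columns of that array, per the file headers from Agilent Feature Extraction 9.1.3.1, served to flag 1074 probes. These stayed in all main results and were left out only when the Y and X levels were recomputed. Per the series description, CGH analytics 3.4 was used by the authors. Repeated probes were averaged to 232626, and the autosomal median of every array was subtracted, with no loess or quantile step. Outlying probes were limited to 3 noise SDs from the median of 5 neighbouring probes, and segments came from penalised least squares (penalty factor 2, at least 5 probes), called at 0.2. On simulated arrays, planted changes of 500 probes by 0.3 were found in 100% and of 10 probes by 0.5 in 25%. Measures that the classes did not use directly were compared by exact permutation with Benjamini-Hochberg adjustment, and local gene levels by limma 3.58.1 in R 4.3.3. The members of both classes, the gene lists and the tests were chosen with earlier results of these data known. Of 141 list genes, 130 were found on the array, with older names matched through a RefSeq table of GRCm38.p6. Named genes were Mettl13, the 3 members of each list with the largest level in an aneuploid tumour, the 5 genes with the smallest limma p, and focal segments called in at least 2 tumours of a single class. Python 3.11.15 and numpy 2.4.6 were used.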

Additional observations from a re-analysis of the deposited data

Results flagged for a closer look

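Of 36 sets of 6 tumour values examined for a value far from the other 5, 2 were flagged, beside 1.8 expected by chance at 1 in 20. Both were autosome means, which formed the classes, so nothing beyond a description is read from them. Chromosome 7 stood at -0.26 in tumour 5, an aneuploid tumour, against a median of 0.01 over the 6 tumours. Chromosome 14 stood at -0.24 in tumour 1, also aneuploid, against a median of 0.03. In both cases the other aneuploid tumours stood with the quiet tumours: chromosome 7 at 0.03 in tumour 1 and 0.00 in tumour 4, and chromosome 14 at 0.06 in tumour 4 and 0.04 in tumour 5.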

How the results depend on the processing

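Of 151 recomputed values, 128 kept their direction and their side of any test's threshold or, for counts, stayed within 1.5 times. The exact permutation p could not fall below 0.1 in any setting. For measures tested that way the side of 0.05 was thus fixed, and only a change of direction could be recorded. The X level centred on the mode was among the 128, although the classes then overlapped. At a class threshold of 0.05, and with centring on the mode, 5 tumours were aneuploid in place of 3, and 37 and 42 pairs of tumour and autosome were past the threshold in place of 20. Centring on the mode moves all autosomes of an array alike, and 19 of the 42 pairs were the autosomes of tumour 3, at 0.102 to 0.124 with an SD of 0.0059. Tumour 4 then had 11 autosomes past 0.1 in place of 4, and tumour 5 had 7 in place of 12. In tumour 5, chromosomes 4, 10, 12, 13 and 18 then stood between -0.09 and -0.08, short of the threshold. At 0.2, tumours 1 and 5 alone were aneuploid, with 7 pairs, and tumour 4 was not. The difference in the altered share, 15.0 percentage points, was 34.3 at a calling threshold of 0.1 and 3.43 at 0.3. The share of bins without overlap, 23.5%, was 12.1% with centring on the mode and 28.1% to 44.4% with a tumour left out. Listed genes gained or lost, 45, numbered 85 at 0.1 and 21 at 0.3. The Loxl2 difference turned to 0.0058 with 80 flanking probes. With each tumour left out in turn, differences that changed sign ranged from -1.67 to 2.83 months for age, -0.047 to 0.077 for probe noise, -0.049 to 0.22 for Mettl13 probe 2, -0.035 to 0.0062 for Loxl2, -0.012 to 0.035 for T cell receptor alpha and delta, -0.0048 to 0.026 for beta, -0.012 to 0.043 for gamma and -0.0019 to 0.047 for the immunoglobulin lambda locus. The local contrast called 0 genes under all 9 alternatives, with 285 to 541 at an unadjusted limma p under 0.05, against 296. The causes were not tested. No paired analysis was possible because the labels link no aneuploid tumour to a quiet tumour. With 3 tumours per class the exact permutation test cannot go below 0.1, and the number of arrays limits the precision.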

Other observations

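At Mid1, a ubiquitin ligase gene at the end of X that in C57BL/6 mice crosses into the region shared with Y, the mean of 8 probes, with no limit on outlying probes, stood at -2.37, -2.10 and -2.31 in aneuploid tumours 1, 4 and 5, against -1.58, -1.98 and -1.33 in quiet tumours 2, 3 and 6. The non-tumour FEAT and wild-type livers stood at -2.13 and -0.08. With outlying probes limited as for segmentation, the called segment stood at -2.03, -1.77 and -2.08 in aneuploid tumours 1, 4 and 5, against -1.23 and -1.58 over the same probes in quiet tumours 2 and 3 and -1.65 in the non-tumour FEAT liver. In tumour 6 it ran over 11 probes, at -0.74. On both bases the aneuploid tumours lay below the quiet tumours, and the non-tumour FEAT liver lay within the range of the aneuploid tumours on the first basis only. This segment was picked after its values were seen and was not tested.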
